A study of Homo sapiens with 6 samples.

Results

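Argonaute crosslink sites in extended and alternative 3' UTRs were described in the cell line HK2, an established human line from kidney proximal tubule epithelium. They are the rows of the deposited site table whose gene feature is ext_3utr (here "extended", 178 sites in 125 gene names) or cds_3utr (here "alternative", 177 sites in 122 gene names). Together they are 355 of 16230 sites, in 244 gene names, with 5006 of 237968 crosslinked reads. The table's header does not define either feature name, so the positions of the sites were checked against gene models below.

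The data are PAR-CLIP libraries, in which 4-thiouridine built into RNA is crosslinked by ultraviolet light to a bound protein and then read as a changed base at that T. An anti-Argonaute antibody was used on wild-type HK2 cells in 2 control libraries and in 2 libraries from cells exposed to TGF-beta1 (20 ng/mL, 24 h). The labels' protocols give a serum starvation of 24 h beforehand, 100 μM 4-thiouridine during the closing 20 h, and irradiation at 365 nm. The 2 IgG libraries of control cells were not analysed here, which leaves the values without a measured background. Whether replicates are separate cultures is not stated in the labels, so p-values rest only on how much these libraries vary, and that variation may be technical.

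The end of a 3' UTR is set where the transcript is cleaved and polyadenylated, and many genes use several such positions. A distal end adds sequence that can hold more microRNA target sites, and an earlier end or another last exon can turn sequence that is coding in one transcript into 3' UTR of another. Argonaute is guided to such sites by a microRNA, whose seed (bases 2 to 8) pairs with the target.

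The 12 sites with the most crosslinked reads are shown first, since their values are the least limited by depth. In this set 10 sites are alternative, and the ENTPD7 and ZC3HAV1L sites are extended. Each run holds 30 nt of the transcript, 5′ to 3′, with the crosslinked T as base 15; capitals mark the match to the seed that the authors listed as best, and coordinates are hg38.
CDKN1B (chr12:12721163-12721192, plus strand): aaacaacaacacaataacactaaaatttta
TGOLN2 (chr2:85322659-85322688, minus strand): gtgctgctctcgtttCAGCTTTgatttttt
ENTPD7 (chr10:99706742-99706771, plus strand): gtgaaccttaTGAATGctgcttaaaaataa
LITAF (chr16:11549444-11549473, minus strand): ccaaaccccagaaatTGCTGCttggagtcg
RPL28 (chr19:55391704-55391733, plus strand): gtgcaaaacctgcttgACTGTGcccacaaa
UBE2C (chr20:45815871-45815900, plus strand): cccttgaacacacATGCTGCcgagctctgg
ZC3HAV1L (chr7:139025469-139025498, minus strand): tctctccagagacttCTACCTCactctgtc
CDKN1B second site (chr12:12721102-12721131, plus strand): gaaaattttaaaaatacatatcgctgactt
ZFP36 (chr19:39408153-39408182, plus strand): actctgtcacaagttCTACCTCcagggccg
SQSTM1 (chr5:179836630-179836659, plus strand): gtctcatagttgtgtTAAGCTtgcgtagaa
JPT1 (chr17:75136025-75136054, minus strand): gtgaactgcacaactTGAGCCtgactgtac
MKNK2 (chr19:2037739-2037768, minus strand): ctggtcagaaccgttACTGTGAatgagtga

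The 2 CDKN1B runs have no listed match and stand in lower case. The other 10 sites carry a match of 6 or 7 bases. The ZC3HAV1L and ZFP36 sites hold the same 7 bases, CTACCTC, right after the crosslinked T, and both pair with the let-7 seed. The mature microRNAs below, from the RefSeq annotation of GRCh38.p14, are shown to read these matches, with the seed in capitals. All 9 let-7 and miR-98 microRNAs that the authors group together had the same seed in that table.
hsa-let-7a-5p: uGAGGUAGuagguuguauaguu
hsa-miR-320b: aAAAGCUGgguugagagggcaa
hsa-miR-103a-3p: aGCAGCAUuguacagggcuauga
hsa-miR-181a-5p: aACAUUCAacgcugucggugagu
hsa-miR-27a-3p: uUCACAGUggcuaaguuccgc
hsa-miR-128-3p: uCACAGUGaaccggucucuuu
hsa-miR-21-5p: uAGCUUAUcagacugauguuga
hsa-miR-24-3p: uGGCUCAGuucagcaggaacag

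Some of these runs match more than 1 of the seeds shown. The ENTPD7 run, listed for miR-181, also holds ATGCTGC, the full 7-base complement of the miR-103a-3p seed, overlapping the listed match. The RPL28 match ACTGTG pairs with bases 2 to 7 of miR-128-3p and equally with bases 3 to 8 of miR-27a-3p. The TGOLN2 run holds TGCTGC, a 6-base match to miR-103a-3p, upstream of its miR-320 match. The MKNK2 run, listed for miR-27, also holds ACTGTG, a match to bases 2 to 7 of miR-128-3p. It holds TGAATG as well, a match to bases 3 to 8 of miR-181a-5p. Seeds other than those shown were not searched. The microRNA named at a site is therefore the authors' best match and not the only possible one.

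Extended sites lay in 2 kinds of place. Of the 175 extended sites whose gene name matched the RefSeq table, 63 lay past the 3' end of the RefSeq gene (36%), at a median of 486 nt and at most 1738 nt beyond it, with 60 of them within 1000 nt. The other 112 lay inside the RefSeq gene, at a median of 6681 nt before its end. Past-end positions were rare among annotated 3' UTR sites, at 8 of 6316, and none of the 177 alternative sites lay there. The feature name itself may rest on the transcript end in GENCODE release 27, so this check describes the class and does not test it.

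**Figure D1:**
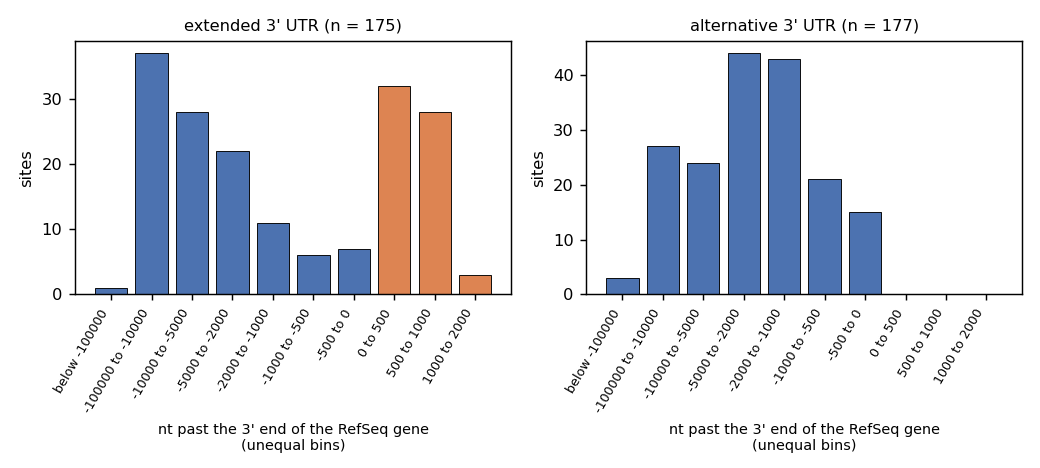
Number of sites (vertical axis) by distance in nt past the 3' end of the RefSeq gene (horizontal axis, unequal bins, negative before the end), for extended sites (left, n = 175) and alternative sites (right, n = 177). Orange bars, on the left only, hold the 63 extended sites beyond the gene end; blue bars hold sites inside the gene.

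Set against annotated 3' UTR crosslinks of the same gene, the 2 classes lay on opposite sides. Of 93 extended sites in genes that also had an annotated 3' UTR site, 72 lay downstream of the last one, at a median distance of 1013 nt. A further 14 lay upstream of the first and 7 between. Of 97 alternative sites in such genes, 88 lay upstream of the first annotated 3' UTR site, 7 between and 2 downstream of the last. The gene end and the annotated class both depend on the annotation, so these counts were not tested.

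Extended sites past the gene end made up 25.9% of extended reads, and those inside it 70.6%. By library the past-end share was 27.9% and 17.1% in control replicates 1 and 2, and 32.5% and 25.3% in TGF-beta1 replicates 1 and 2, so the groups overlapped. A seed match was listed at 44 of the 63 past-end sites and at 71 of the 112 inner sites. Full 7-base matches were at 12 and 28 of them.

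Most genes held 1 such site: 96 of the 125 extended and 98 of the 122 alternative gene names. The 10 leading sites held 32.6% of the reads of the 178 extended sites and 40.3% of those of the 177 alternative sites. In the annotated 3' UTR the 10 leading sites held 7.23%. That class has 6332 sites, so 10 sites are a far smaller part of it and the shares cannot be compared. The median site had 6 crosslinked reads over the 4 libraries when extended and 8 when alternative, against 10 in the annotated 3' UTR and 6 in coding sequence. All 4 libraries had a crosslink at 28.1% of extended, 45.2% of alternative and 56.1% of annotated 3' UTR sites. Library depth was 1714445 and 1926255 reads in the controls against 5293208 and 3415699 after TGF-beta1. Among the 355 sites, 40 (11.3%) had no control crosslink and 1 (0.282%) had none after TGF-beta1, against 11.5% and 1.19% of all sites in the table. By class, 27 extended (15.2%) and 13 alternative sites (7.34%) had no control crosslink. The shares were 5.84% in the annotated 3' UTR and 12.2% in coding sequence.

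In genes with both, these sites took a sizeable part of the 3' reads. Extended sites held a median of 27.6% of a gene's extended plus annotated 3' UTR reads over 52 genes, from 0.526% to 83.8%, and over 50% in 16 of them. Alternative sites held a median of 36.8% over 67 genes, from 0.635% to 87.7%, and over 50% in 21. Another 73 extended and 55 alternative gene names had no annotated 3' UTR site at all, although 15 of the 244 names join overlapping genes. CDK1, GNAS and TPM1 were the 3 genes with both classes.

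CDKN1B, which encodes the cell cycle inhibitor p27, held the most crosslinked site. Its TMM-scaled RPM (reads scaled to library depth and rescaled by a composition factor per library) was 34.3 and 27.5 in control replicates 1 and 2, and 21.6 and 26 in TGF-beta1 replicates 1 and 2. Both controls were above both treated libraries, but the difference did not pass (limma adjusted p = 0.478). With 2 libraries against 2, groups that stand apart give an exact permutation p of 0.333. Standing apart is therefore not read as an effect at this site or those below. The share of all tested sites that stand apart was not computed. A second CDKN1B site, 61 nt upstream, had 8.29 and 10.3 in controls against 7.70 and 3.71, and did not pass either (limma adjusted p = 0.398). Another lay between them, with 22 reads in all and a 6-base match to miR-21-5p. The 3 sites lay 31 to 92 nt before the first annotated 3' UTR site of the gene. They held 15.7% and 15.03% of alternative reads in the controls and 11.6% and 11.9% after TGF-beta1, so this gene bears on every share of reads given for the class.

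TGOLN2, which encodes a trans-Golgi network membrane protein, held the next site, with the miR-320 match shown above. It lay 80 nt before the first annotated 3' UTR site. Its level was 35.9 and 29.95 TMM-scaled RPM in controls and 14.5 and 19.7 after TGF-beta1, so the groups did not overlap. The TGOLN2 alternative sites held 76.5% and 60.9% of the gene's alternative plus annotated 3' UTR reads in controls and 39.3% and 54.5% after TGF-beta1. Annotated 3' UTR sites of TGOLN2 measured 12.9 and 22.4 TMM-scaled RPM in controls and 23.6 and 17.3 after TGF-beta1, and these groups overlapped. The difference of that ratio between groups was -1.30 in log2 units and did not pass (limma adjusted p = 0.694).

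ENTPD7, a nucleoside triphosphate diphosphohydrolase gene, had the leading extended site, 1289 nt past its last annotated 3' UTR site and still 4485 nt before the RefSeq gene end. Its values were 17.1 and 12.05 in controls and 12.3 and 14 after TGF-beta1, so the groups overlapped. ZC3HAV1L, the other extended gene of this set, had its let-7 site 818 nt past the last annotated site. It measured 6.64 and 11.4 against 9.55 and 6.29, with a wider spread between replicates than between groups.

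The remaining leading sites were alternative. LITAF, a regulator of lysosomal trafficking, had a miR-103a match and measured 3.32 and 9.29 in controls against 12.01 and 10.9 after TGF-beta1. UBE2C, a ubiquitin-conjugating enzyme of mitosis, had a full miR-103a match and measured 7.74 and 8.26 against 11.1 and 7.71. RPL28, a ribosomal protein gene, measured 5.53 and 10.3 against 11.4 and 8.0. Control replicate 1 was the lowest library at LITAF and RPL28. The groups overlapped at UBE2C and RPL28 and stood apart at LITAF.

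SQSTM1, which encodes the autophagy receptor p62, had a miR-21 match 27 nt before its first annotated 3' UTR site. Its 4 values ranged from 5.14 to 6.89 TMM-scaled RPM, and the groups overlapped. JPT1 had a miR-24 match and ranged from 3.32 to 7.14. MKNK2, a kinase that phosphorylates the cap-binding factor eIF4E, had a miR-27 match and ranged from 3.32 to 6.78. Control replicate 1 was again the lowest library at both.

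**Figure D2:**
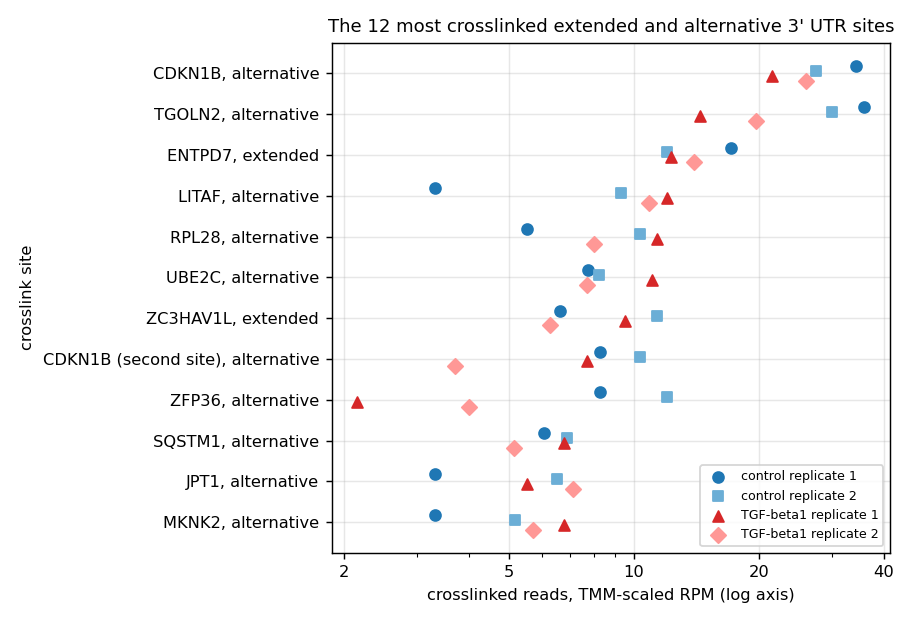
Crosslinked reads in TMM-scaled RPM (log axis) at the 12 sites with the highest mean, 1 row per site and 1 point per library (blue, controls; red, TGF-beta1). TGOLN2, ZFP36 and both CDKN1B sites show both controls to the right of both treated libraries. LITAF and MKNK2 show them to the left, and the other rows, such as ENTPD7 and SQSTM1, show mixed points. Groups that stand apart are not read as an effect, since the share of all tested sites that do so was not computed.

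ZFP36 encodes tristetraprolin, a protein that binds AU-rich elements and speeds mRNA decay. Its let-7 site lay 854 nt before its annotated 3' UTR site and held 71 reads in all. The values were 8.29 and 12.05 TMM-scaled RPM in controls and 2.16 and 4.00 after TGF-beta1. Both controls were above both treated libraries. The related decay factor gene ZFP36L1 had 7 alternative sites within 144 nt, all of them before its first annotated 3' UTR site. Summed, they measured 4.47 and 1.84 in controls and 7.19 and 8.21 after TGF-beta1, against 112 to 154 at its 24 annotated 3' UTR sites.

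CDK1, the kinase that drives entry into mitosis, held the most sites, 10 with 61 reads in all. Its 4 alternative sites lay 881 to 2686 nt before the RefSeq gene end, and its 6 extended sites 1 to 820 nt beyond it. Of the extended sites, 5 had a listed match, to miR-103a-3p, miR-148a-3p, miR-222-3p (at 2 sites) and miR-128-3p. Summed, the extended sites had 10 and 7 crosslinked reads in the controls and 9 and 14 after TGF-beta1, or 5.59, 2.57, 2.59 and 3.96 TMM-scaled RPM. The 2 annotated 3' UTR sites of the gene had at most 2.59 TMM-scaled RPM in any library.

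**Figure D3:**
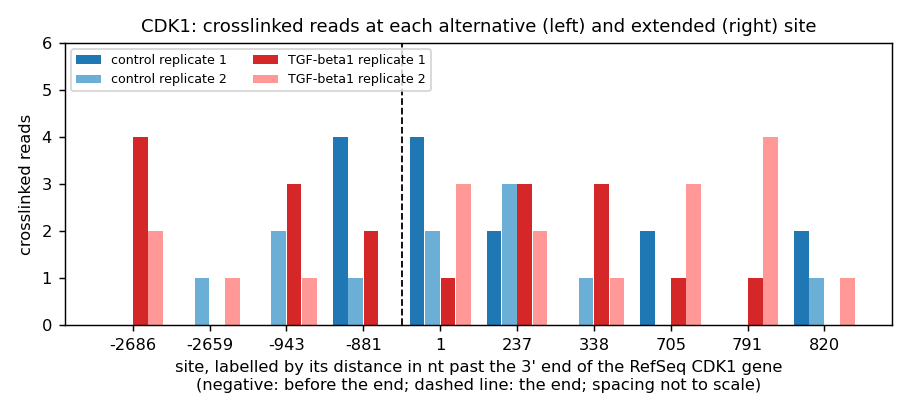
Crosslinked reads (vertical axis) at each CDK1 site, ordered and labelled by distance in nt past the RefSeq gene end, with 1 bar per library. No bar passes 4 reads, and 6 of the 10 sites stand right of the dashed line that marks the gene end.

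Other genes with several sites differed in where they lay. TPM1, an actin-binding tropomyosin, had 8 extended sites and 1 alternative site, all inside the gene: 5 of the extended sites came before its first annotated 3' UTR site and 3 between annotated ones. HELLS, a chromatin remodeller, had 6 extended sites from 310 to 1212 nt past its last annotated site, and 5 of them had no listed match. SFPQ, a splicing factor, had 6 extended sites from 474 to 1214 nt past its last annotated site, each with a match and 2 to 7 reads. HNRNPU, an RNA-binding nuclear protein, had 4 extended sites 97 to 952 nt past the gene end; it was picked out after its values were seen.

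Genes with several alternative sites included 2 joined names. The joined name EIF4A1,SENP3-EIF4A1, a translation initiation helicase and its read-through partner, had 8 sites. Their crosslinked reads were 8, 5, 20 and 22 in control replicates 1 and 2 and then TGF-beta1 replicates 1 and 2. In the same order the sums were 4.47, 1.84, 5.75 and 6.23 TMM-scaled RPM, and the difference did not pass (limma adjusted p = 0.433). The joined name ATP6V1G2-DDX39B,DDX39B, an RNA export helicase and its read-through partner, had 5 sites with 9, 3, 8 and 9 reads. These were 5.03, 1.10, 2.30 and 2.55 TMM-scaled RPM. GNAS, the stimulatory G protein alpha subunit, had 6 alternative sites and 1 extended site. Its alternative sites summed to 9.51 and 8.46 TMM-scaled RPM in controls and 7.19 and 6.51 after TGF-beta1. The sources used here do not say how reads of overlapping transcripts were assigned.

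Seed matches were listed at similar shares of sites in both classes: 66.3% of extended and 67.2% of alternative sites had one, against 73.2% of annotated 3' UTR and 59.7% of coding sites. Full 7-base matches were at 23.03% of extended and 18.1% of alternative sites, against 27.01% of annotated 3' UTR and 15.5% of coding sites. By reads the classes parted. Sites with a match held 82.5% ± 3.33 (SD, n = 4) of extended reads, 65.7% ± 2.96 of alternative reads, 84.2% ± 0.775 of annotated 3' UTR reads and 69.7% ± 3.11 of coding reads.

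Within libraries, the extended share was 1.76 percentage points below the annotated 3' UTR on average (difference -1.76 ± 2.78, SD, n = 4; higher in 1 of 4 libraries; two-sided exact sign-flip p = 0.25, adjusted over 3 comparisons 0.25). It was -3.36 points with covering reads, -3.37 without the leading extended site and -5.21 with each site counted once. The alternative share was lower than the annotated 3' UTR in each of the 4 libraries, by -18.5 ± 2.42 points (exact p = 0.125, adjusted 0.1875), and lower than coding sequence in each by -3.95 ± 1.96 points (exact p = 0.125, adjusted 0.1875). With 4 libraries this test cannot go below 0.125. The CDKN1B site without a match sets much of this: without it the gap to the annotated 3' UTR was -11.1 points, and that to coding sequence turned to 3.44 points. Each site counted once gave -6.92 and 5.82 points, and covering reads gave -10.2 and 7.37.

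The part of covering reads that carried the crosslink was higher at extended than at annotated 3' UTR sites in each library, by an amount that depends on which sites are counted. Over all sites of each class it was 36.7% and 43.3% in controls and 25.96% and 30.9% after TGF-beta1 at extended sites, against 31.8%, 33.1%, 24.9% and 26.3% in the annotated 3' UTR. That is a difference of 5.195 ± 3.79 points (SD, n = 4), from 1.06 in TGF-beta1 replicate 1 to 10.2 in control replicate 2 (exact sign-flip p = 0.125, the smallest possible). Sites crosslinked in every library gave a wider gap, but that choice uses the crosslinks themselves and kept 28.1% of extended against 56.1% of annotated sites. Over the 50 extended sites crosslinked in every library, 48.0% and 51.5% of covering reads carried the crosslink in controls and 42.1% and 45.1% after TGF-beta1. Over 3552 annotated 3' UTR sites the shares were 33.99%, 36.1%, 30.2% and 30.4%. The difference was 13.9 ± 1.49 points (SD, n = 4, higher in 4 of 4 libraries, exact sign-flip p = 0.125). It was 13.2 without the leading site and 7.64 as a median over sites. The 80 alternative sites differed from the annotated 3' UTR by 0.922 ± 1.47 points (exact p = 0.25), and this sign turned under both of those variations and over all sites (-0.223). This comparison was chosen after the data were seen.

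**Figure D4:**
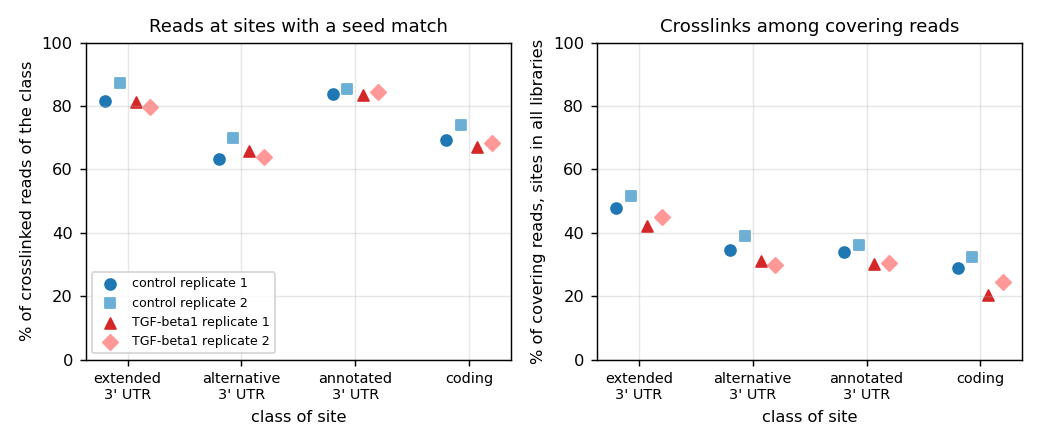
Left, crosslinked reads at sites with a listed seed match, in % of the class; right, crosslinked reads in % of covering reads at sites crosslinked in all 4 libraries. Each point is 1 library (blue, controls; red, TGF-beta1); alternative sites lie between 63.4% and 69.9% on the left, and extended sites between 42.1% and 51.5% on the right.

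The let-7 and miR-103a seeds were each listed at 21 of the 355 sites, the most of any seed. The miR-27 seed followed with 17 sites, miR-181 with 16 and miR-205 with 13. By class, let-7 had 13 alternative and 8 extended sites, miR-103a 8 and 13, miR-27 8 and 9, miR-181 8 and 8, and miR-205 10 and 3. As a share of matched sites, let-7 held 10.9% of alternative and 6.78% of extended sites, against 4.62% in the annotated 3' UTR and 6.42% in coding sequence. For miR-205 the shares were 8.40% and 2.54%, against 3.13% and 8.87%. Counts this small were not tested.

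The polyadenylation hexamers AATAAA or ATTAAA were searched in the sense direction in the 31 nt window of each site. They were in 4 extended (2.25%) and 2 alternative windows (1.13%), against 3.11% of annotated 3' UTR and 2.40% of all windows. These windows are centred on the crosslink and need not reach a transcript end. Zinc finger genes named ZNF made up 13 of the 125 extended gene names (10.4%) and 7 of the 122 alternative ones (5.74%), against 3.26% of names with annotated 3' UTR sites. ZNF675, with 38 reads 954 nt past its gene end, and ZNF91, with 38 reads inside its gene, led this group, which was chosen after the data were seen.

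The effect of TGF-beta1 was asked of the classes first. Extended sites held 0.804% and 0.849% of all crosslinked reads in controls and 0.779% and 0.806% after TGF-beta1 (two-sided exact permutation p = 0.667). Alternative sites held 1.38% and 1.40% in controls and 1.16% and 1.32% after TGF-beta1 (exact permutation p = 0.333). With 2 libraries against 2 this test cannot go below 0.333.

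Single sites were then tested with limma over the 1059 sites of the table that passed the filter on low counts, of which 23 were extended or alternative; the other 332 were too low to test. Crosslinking was lower after TGF-beta1 at the TGOLN2 site, with a log2 difference of -0.92 ± 0.27 (SE) on the log2(value + 1) scale (limma adjusted p = 0.0373). At the ZFP36 site the log2 difference was -1.47 ± 0.45 (limma adjusted p = 0.0489). Both were alternative sites, and none of the 8 extended sites tested passed. The 2 calls are 8.70% of the 23 sites, against 7.08% called among all sites tested (3.68% higher, 3.4% lower). With both directions pooled, the share is thus near the background, while the 2 calls were both lower. The filter keeps a site with enough reads for the depth in any 2 libraries. The ZFP36 site had 15 and 35 reads in controls, and 7 and 14 in the deeper treated libraries. Both controls met the filter there but not both treated libraries, so the site was tested because of the group where it was high. Its call is not independent of the filter. The median log2 difference of the 23 was -0.12, against 0.05 for all sites tested.

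**Figure D5:**
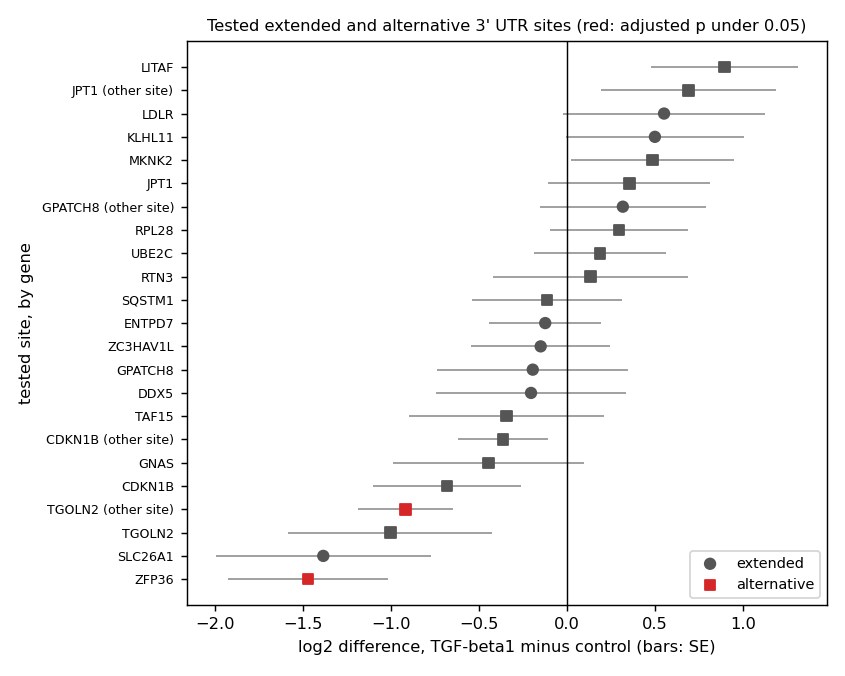
Log2 difference, TGF-beta1 minus control, on the log2(TMM-scaled RPM + 1) scale for the 23 tested sites, with SE as bars (circles, extended; squares, alternative). The ZFP36 site at -1.47 and a TGOLN2 site at -0.92 are in red for an adjusted p under 0.05, and the points run up to 0.90 at LITAF.

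Neither call was firm. With TMM factors computed before the filter on low counts, the adjusted p was 0.367 for TGOLN2 and 0.133 for ZFP36. With limma's spread not modelled as a trend it was 0.252 and 0.0960. With DESeq2 on recovered reads it was 0.0730 and 0.0992, and with edgeR 0.0335 and 0.0272. Leaving out any 1 library ended the TGOLN2 call (adjusted p from 0.0894 to 0.812), and the ZFP36 call held only without control replicate 1. The direction was lower after TGF-beta1 in each of these fits. Crosslinks were not set against RNA levels, so whether less of the RNA moved with these lower values was not tested. Fewer cells with the RNA and less of it per cell cannot be told apart in bulk libraries.

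SLC26A1, a sulfate transporter gene, had the lowest log2 difference of the extended sites tested. It measured 3.87 and 3.44 TMM-scaled RPM in controls against 0.308 and 1.43 after TGF-beta1. Its adjusted p was 0.194. LITAF had the highest log2 difference, 0.90 ± 0.42, with an adjusted p of 0.226. SLC26A1 was picked for the lowest log2 difference of the 8 extended sites tested, and LITAF for the highest of all 23 sites. The SLC26A1 site had 7 and 10 reads in controls, and 1 and 5 in the deeper treated libraries. It met the filter on low counts in the controls only, which favours a lower value after TGF-beta1, so its rank is no support for a change.

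Sums per gene and class called the same 2 genes, from nearly the same reads, so they are not separate support. The ZFP36 sum is its 1 site, with the same limit from the filter. The called TGOLN2 site gave 268 of the 296 reads of its sum. Of 1227 sums tested 28 were extended or alternative, and TGOLN2 (log2 difference -1.07 ± 0.28, limma adjusted p = 0.0294) and ZFP36 (-1.56 ± 0.42, adjusted p = 0.0356) were lower after TGF-beta1. That is 7.14%, against 5.46% called over all sums (3.02% higher, 2.44% lower). Blocking on the replicate number took the adjusted p to 0.141 and 0.108. With TMM factors from before the filter it was 0.123 and 0.0708, and with DESeq2 0.118 and 0.162, so neither passed in these 3 fits. Neither passed without either TGF-beta1 replicate; without control replicate 1 TGOLN2 was lost (0.0631), and without control replicate 2 ZFP36 (0.121). The ZFP36L1 alternative sum had a log2 difference of 1.14 ± 0.45 and did not pass (limma adjusted p = 0.199), though it did without control replicate 1 (0.0115).

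The balance between extended or alternative sites and annotated 3' UTR sites within a gene was tested for 66 ratios in 65 genes, TPM1 having both classes. None passed with limma (0% called), and at an unadjusted limma p under 0.05 there were 1 higher and 3 lower ratios. The smallest adjusted p was 0.110, at ZNF460, a zinc finger gene. Its extended and annotated reads were 2 and 1, and 5 and 7, in the controls, and 0 and 28, and 5 and 27, after TGF-beta1. The extended share was thus 66.7%, 41.7%, 0% and 15.6%. PKN2, a protein kinase gene, had a ratio difference of 1.84 in log2 units, PVR, the poliovirus receptor CD155, -1.53, and the adaptor gene CRK 1.28. Several libraries held 0 to 3 reads of the extended or alternative kind at these genes. ZFP36 had a ratio difference of -1.45, which did not pass either (limma adjusted p = 0.694). Its annotated 3' UTR reads were only 0 and 8 in controls and 2 and 4 after TGF-beta1. The alternative share was 100% and 81.4% in controls and 77.8% in each treated library, so the difference leans on the control replicate with 0 annotated reads.

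Genes of 3 pathways were taken as lists. Of 25 genes of 3' end processing 16 had an Argonaute site of any class, 7 could be tested and none passed in either direction (median log2 difference -0.21 against 0.02 over the 1266 genes tested). Among them CPSF7 and HNRNPC had an alternative site, and CSTF3 and PABPC1 an extended one, each with 4 to 14 reads in all. Of 12 genes of the microRNA machinery 8 had sites, 6 could be tested and none passed. DGCR8, the partner of Drosha, had 1 extended site with 7 reads, none in the controls. Of 28 TGF-beta and SMAD genes 20 had sites, 14 could be tested and 6 were higher and none lower, against 3.08% of genes called overall (1.58% higher, 1.5% lower). This list was chosen with earlier results known, and the count over the 3 lists together, 6 as reported, was 2 without TMM scaling, 1 with no variance trend and 0 without control replicate 2. None of these genes had an extended or alternative site, so these 6 calls rest on sites of other classes.

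Of the lists of cell markers, 0 of 10 proximal tubule genes, 4 of 9 epithelial genes and 1 of 9 genes of other cells had an Argonaute site. An Argonaute site needs both the RNA and a bound microRNA, so its absence does not measure expression. The proximal tubule identity of the cells is thus given by the label and was not tested by these data.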

How the data were processed

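Per the file headers, the deposited table gives for each crosslink site and library the crosslinked and the covering reads in RPM, and a score per seed, the authors' microRNA reads rounded to whole numbers. The submitters' processing notes name bcl2fastq 2.20.0.422, STAR 2.7.1a, bedtools and hg38; the file headers name GENCODE release 27. The crosslink caller is not given in the sources used here. RPM values were whole multiples of 1 read (100% to within 0.1 reads), which gave back the reads and the depth; intervals of counting error are not given, since no molecular identifiers are named. Another 4 columns, which name RNA-seq samples, were not used.

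The reported test is limma 3.58.1, two-sided and with the spread modelled as a trend, on log2(TMM-scaled RPM + 1), with Benjamini-Hochberg adjustment over all features kept by filterByExpr (edgeR 4.0.16, minimum count 10) and a threshold of 0.05. It ran on sites, on sums per gene and class, and on sums per gene, each with its own TMM factors; the ratio of classes had no trend. TMM factors were at first computed before the filter, which called 42 sites and no extended or alternative site. They were then taken after it (75 sites, 2 of them extended or alternative), to follow the earlier processing of these data, so the calls are not independent of that choice. On simulated data from these means, 18% of 2-fold and 75% of 4-fold changes were recovered over 1059 sites. The simulation used a fixed spread that was not estimated from these libraries, and it had no TMM step. These rates are therefore not the power of the reported test.

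Single values were compared by exact permutation. Distances come from RefSeq genes of GRCh38.p14. The text names the 12 leading sites, the called sites and sums, the 8 genes with the most sites, members of the lists, and the 5 ratios with the smallest p. The members, lists and rules were chosen with earlier results of these data known. Control and treated libraries share replicate numbers; deviations of same-numbered libraries correlated at 0.117 over sites with only 2 pairs, so they were not taken as pairs. Python 3.11.15 and R 4.3.3 were used.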

Additional observations from a re-analysis of the deposited data

How the results depend on the processing

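The count of extended and alternative sites called after TGF-beta1 was 2 as reported, with edgeR and with the replicate block. It was 1 with a pseudocount of 0.5, and 0 with no TMM scaling, no filter, DESeq2, covering reads, no variance trend, or TMM factors before the filter. The last was the first setting run, and the reported order was adopted after its calls were seen. Leaving out 1 library gave 0 to 1. For sums per gene and class the count was 1 with no TMM scaling and 0 with no filter, DESeq2, covering reads, the replicate block, no variance trend or TMM factors before the filter; leaving out 1 library gave 0 to 4. The class ratio had 0 calls in every fit run. The count over the gene lists, 6 as reported, was 7 with the replicate block, 2 with no TMM scaling or no filter, 1 with no variance trend, and 0 to 4 with 1 library left out. Without TMM the median of all sites moved from 0.05 to -0.51, so directions are relative to that median. Each crosslinked site counted once gave read-share changes of 0.10 (extended) and -0.0028 (alternative) percentage points, and seed-share gaps of -5.21 (extended to annotated), -6.92 and 5.82 points. Covering reads gave -10.2 and 7.37, and dropping the leading site -11.1 and 3.44, for alternative sites against annotated 3' UTR and coding sequence. With 1 library left out, the read-share changes were -0.056 to -0.011 and -0.232 to -0.067, and the 3 seed-share gaps -3.03 to -0.806, -19.5 to -17.8 and -4.85 to -3.28. Depth left 332 of 355 sites too low to test, and both control libraries were shallower than both treated ones.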
